A study of Mus musculus with 12 samples.

Results

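The tumor suppressor p53, encoded by Trp53, and 9 of its well-known target genes (Mdm2, Ccng1, Bax, Bbc3, Phlda3, Eda2r, Trp53inp1, Zmat3 and Sesn2) were followed across mouse livers and liver tumors. They were chosen by name, from what is known of the pathway and with earlier results of these data known. They are the rows of the count table whose Entrez identifier carries one of these symbols. All 10 of the 26301 genes in the table were found, and all 10 were among the 13882 genes with enough counts to be tested. RNA came from adult mice of an ageing study, and the reads were counted per gene. The control group held 4 non-tumor livers of wild-type mice. The DKO group held 4 spontaneous liver tumors in which E2f7 and E2f8 were deleted with a Cre recombinase under the albumin promoter (Alb-Cre), and the TKO group held 4 spontaneous liver tumors in which Rb1 was deleted along with them. Alb-Cre acts in hepatocytes, so the other cells of a tumor keep these genes, and the wild-type livers carry no deletion. The mice were bred towards the FVB strain.

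p53 is a transcription factor that is held at low levels in unstressed cells by MDM2, a ubiquitin ligase that marks it for degradation. DNA damage and oncogenic stress free p53 from MDM2, mostly through changes to the protein rather than to its mRNA, and p53 then switches on genes for cell cycle arrest, DNA repair, metabolic control and cell death. MDM2 is itself a target, which closes a feedback loop, and in the liver p53 restrains the division of hepatocytes with damaged or extra chromosomes.

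Total counts per library ranged from 9165812 to 16424973. Values are given as CPM, the counts of a gene relative to the TMM-scaled library total. Differences are log2 fold changes with their standard errors (SE) and with p-values adjusted over all 13882 genes, from the quasi-likelihood test of edgeR. A gene is said to have been called where its adjusted p was under 0.05. Rb1 was at 3.21 to 5.47 CPM in the TKO tumors and at 6.52 to 11.3 CPM in the other libraries, without overlap. E2f7 was at 0.812 ± 0.239 CPM in control livers, 1.15 ± 0.717 in DKO tumors and 0.803 ± 0.0882 in TKO tumors, on 4 to 24 counts per library. E2f8 was at 6.24 ± 1.92, 20.5 ± 17.2 and 26.1 ± 18.5 CPM (SD, n = 4 each). Counts summed over a whole gene do not show the deleted exons. The hepatocyte marker Alb took 4.82% to 22.7% of counts, and Xist had at most 6 counts in every library. The libraries are bulk tissue, in which fewer cells of a type and less RNA per cell cannot be told apart.

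p53 binds DNA as a tetramer through a 10-base motif, the p53 decamer, which usually occurs as a pair. The sequences below show where this motif lies near the start sites of the genes whose values follow, and they come from the RefSeq promoter windows of GRCm38.p6 (250 bases before to 50 bases after a start site). The decamer reads alike on both strands, and 8.36% of all 32851 windows hold it. Of the 10 genes, 8 had a window, and 4 of these held a decamer: Trp53 itself, Mdm2, Ccng1 and Bax. Cdkn1a, the CDK inhibitor gene p21, is shown because it was called in these data and because 1 of its windows held 2 decamers with 12 bases between them. Of all windows, 0.0731% held 2 decamers with at most 13 bases between them. Capitals mark the decamers, and each line is written 5′ to 3′ on the strand of the gene.
Trp53, chr11:69580269-69580308, plus strand: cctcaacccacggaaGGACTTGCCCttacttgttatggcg
Mdm2, chr10:117710920-117710959, minus strand: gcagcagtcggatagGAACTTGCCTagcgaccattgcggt
Ccng1, chr11:40755447-40755486, minus strand: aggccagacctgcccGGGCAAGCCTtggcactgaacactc
Bax, chr7:45467075-45467114, minus strand: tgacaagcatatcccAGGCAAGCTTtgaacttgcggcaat
Cdkn1a, chr17:29090891-29090952, plus strand: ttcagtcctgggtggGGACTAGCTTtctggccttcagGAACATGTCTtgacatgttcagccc
The decamers began 75 bases before the start site in Trp53, 186 in Mdm2, 185 in Ccng1, 201 in Bax and 73 in Cdkn1a. The windows of Phlda3, Eda2r, Sesn2 and Bbc3 held no decamer, and Zmat3 and Trp53inp1 had no window. Cdkn1a had 2 windows, of which 1 held decamers. Btg2 and Thbs1 were also called in these data: Btg2 had 1 window, without a decamer, and Thbs1 had no window. A match describes these letters in this window and shows no binding.

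**Figure D1:**
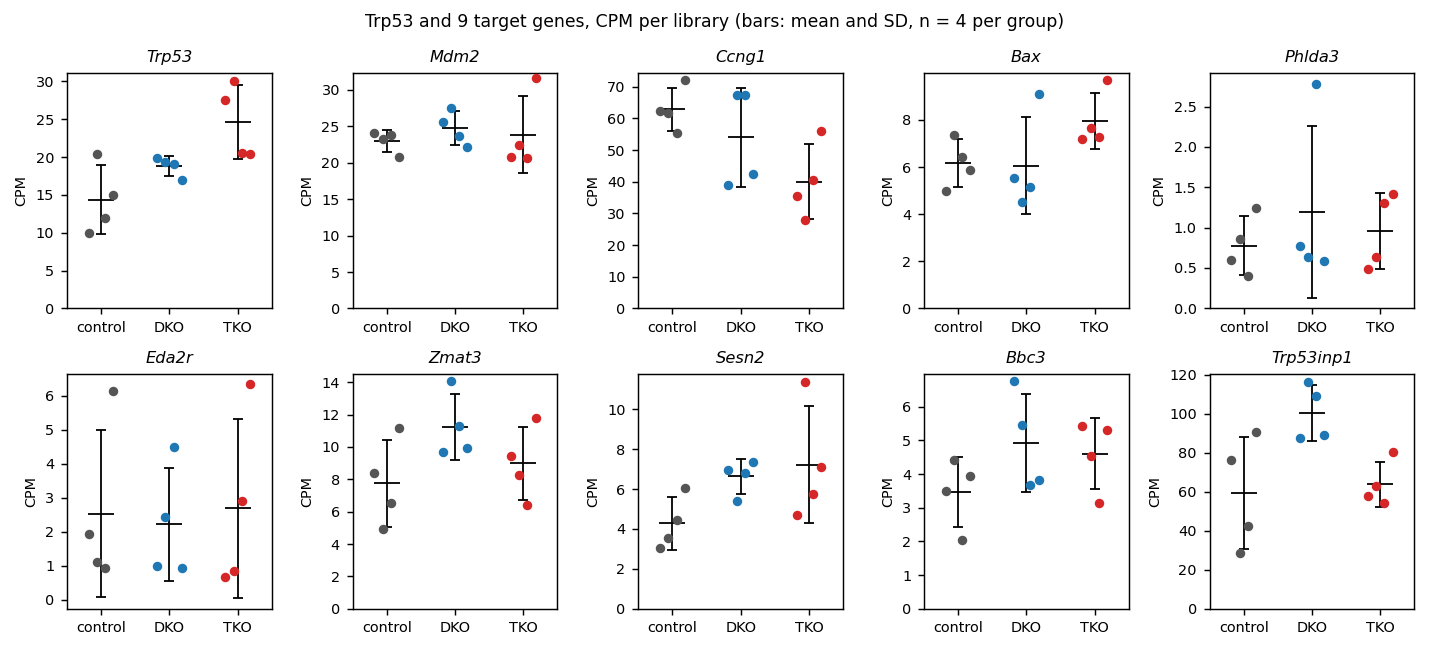
CPM of Trp53 and its 9 targets in every library (points), grouped as control livers, DKO tumors and TKO tumors, with the mean and SD of the 4 libraries as bars. The 4 TKO tumors are above the 4 DKO tumors for Trp53 (20.4 to 30.1 against 16.9 to 19.9 CPM) and below them for Trp53inp1 (54.1 to 80.3 against 87.6 to 116 CPM), while for Eda2r each group holds both low and high libraries.

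The levels of the 10 genes differed widely. Per kilobase of annotated exon, Ccng1 had the highest level in control livers, at 17.9 ± 1.95 CPM per kb (SD, n = 4), and Trp53inp1 was next at 9.18 ± 4.45. Bax (4.60 ± 0.755), Mdm2 (4.53 ± 0.295) and Trp53 (3.55 ± 1.12) came next, and these neighbours lay within each other's spread. Bbc3 (1.73 ± 0.516), Sesn2 (1.23 ± 0.383) and Zmat3 (0.958 ± 0.334) were lower, again with neighbours within the spread, and Phlda3 (0.498 ± 0.233) and Eda2r (0.430 ± 0.416) were the lowest and could not be placed in order. Phlda3 rested on 6 to 47 counts per library and Eda2r on 9 to 85, so counting error alone is large for both. None of the 10 genes shared annotated exon sequence with another gene in GENCODE vM1, the annotation of the authors' genome build (mm9).

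Trp53 (Entrez 22059, mm9 chromosome 11 from 69393861 to 69405375) was at 10.01, 20.4, 11.99 and 15.01 CPM in control livers 1 to 4. It was at 19.9, 19.3, 19.1 and 16.9 CPM in DKO tumors and at 27.5, 30.1, 20.6 and 20.4 CPM in TKO tumors. The group means, in the order control, DKO and TKO, were 14.4 ± 4.53, 18.8 ± 1.29 and 24.6 ± 4.91 CPM (SD, n = 4 each). Control 2 overlapped both tumor groups, and without it every TKO tumor was above every control liver. Against control livers, Trp53 had a log2 fold change of 0.79 in TKO tumors (SE 0.209, adjusted p = 0.137), a ratio of 1.72, and 0.40 in DKO tumors (SE 0.209, adjusted p = 0.270). Neither was called by edgeR. DESeq2, the tool the study's methods name, called the difference in TKO tumors (adjusted p = 0.0312), as did limma-voom (adjusted p = 0.0459), and its adjusted p ran up to 0.352 over all alternatives (edgeR without control 3). Across the 8 tumors together Trp53 was higher by 0.59 on the log2 scale (SE 0.185, adjusted p = 0.0902 by edgeR and 0.0415 by DESeq2).

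Between the tumor genotypes the 4 Trp53 values did not overlap, but the highest DKO tumor was at 19.9 CPM and the lowest TKO tumor at 20.4 CPM. Their log2 fold change, TKO against DKO, was 0.39 (95% interval -0.08 to 0.86, adjusted p = 0.587), and it was not called by edgeR or DESeq2. The counts do not show the sequence, the state or the amount of the p53 protein.

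Mdm2 (Entrez 17246, chromosome 10 from 117125944 to 117147814), which feeds back on p53, was the steadiest of the 10 genes. It was at 24.0, 23.2, 23.9 and 20.8 CPM in control livers, 25.5, 27.5, 23.7 and 22.2 CPM in DKO tumors and 20.7, 22.4, 20.6 and 31.6 CPM in TKO tumors. The groups overlapped, and TKO 4 alone stood above the rest. Its log2 fold change against control livers was 0.11 in DKO tumors (95% interval -0.23 to 0.44, adjusted p = 0.696) and 0.05 in TKO tumors (95% interval -0.28 to 0.39, adjusted p = 0.901). Without TKO 4 the latter was -0.12. The SD of Mdm2 within groups was 0.193 on the log2 scale, and 84.2% of all tested genes had a larger one.

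Ccng1 (Entrez 12450, chromosome 11 from 40562054 to 40568813) encodes cyclin G1, which brings a phosphatase to MDM2 and is a sensitive p53 target in many tissues. It was at 62.2, 61.6, 55.5 and 72.1 CPM in control livers, 38.9, 67.5, 67.3 and 42.4 CPM in DKO tumors and 35.6, 27.8, 40.6 and 55.9 CPM in TKO tumors. It was thus the 1 gene of the list whose mean was below that of the control livers by more than 1.5 times in a tumor group, with 3 of 4 TKO tumors under the lowest control liver and TKO 4 just above it. The DKO tumors formed a low pair (1 and 4) and a pair at control levels (2 and 3). Ccng1 had a log2 fold change of -0.65 in TKO tumors (SE 0.232, adjusted p = 0.203) and -0.22 in DKO tumors (SE 0.231, adjusted p = 0.599), and neither edgeR nor DESeq2 called either one.

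Bax and Bbc3 act in cell death, and neither was called in any comparison by edgeR or DESeq2. Bax (Entrez 12028, chromosome 7 from 52717065 to 52722268), the effector that permeabilizes mitochondria, was at 6.16 ± 1.01 CPM in control livers, 6.06 ± 2.05 in DKO tumors and 7.96 ± 1.18 in TKO tumors (SD, n = 4 each). Its log2 fold change was -0.02 in DKO tumors and 0.37 in TKO tumors, with adjusted p = 0.976 and 0.454 by edgeR. DKO 4, at 9.08 CPM, was above the other DKO tumors at 4.51 to 5.52 CPM, and without it the log2 fold change in DKO tumors was -0.28. Bbc3 (Entrez 170770, chromosome 7 from 16894965 to 16903554), which encodes PUMA, a BH3-only activator of BAX, had means of 3.48 ± 1.03 CPM in control livers, 4.93 ± 1.46 in DKO tumors and 4.60 ± 1.05 in TKO tumors. Its log2 fold changes were 0.51 and 0.42 (adjusted p = 0.312 and 0.516 by edgeR), and the groups overlapped.

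Trp53inp1 (Entrez 60599, chromosome 4 from 11083578 to 11101526), a stress-induced nuclear protein that promotes p53 activity and autophagy, differed most between the tumor genotypes. It was at 76.1, 28.5, 42.6 and 90.6 CPM in control livers, 87.6, 116, 109 and 89.4 CPM in DKO tumors and 58.0, 63.0, 54.1 and 80.3 CPM in TKO tumors. The DKO tumors were all above the TKO tumors, while the control livers ran from below every tumor (control 2 and 3) to within the range of the DKO tumors (control 4). Between them, TKO against DKO, the log2 fold change was -0.66 (95% interval -1.33 to 0.01, adjusted p = 0.554 by edgeR and 0.495 by DESeq2), so it was not called. Against control livers it was 0.76 in DKO tumors (SE 0.297, adjusted p = 0.146 by edgeR, 0.105 by DESeq2 and 0.0344 by limma-voom) and 0.10 in TKO tumors (SE 0.296, adjusted p = 0.906).

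Eda2r (Entrez 245527, chromosome X from 94529179 to 94572555) encodes a receptor of the TNF receptor family, and it varied more within groups than nearly any other gene. It was at 1.93, 1.11, 0.949 and 6.15 CPM in control livers, 0.997, 2.45, 4.50 and 0.943 CPM in DKO tumors and 0.663, 0.853, 2.92 and 6.34 CPM in TKO tumors. Control 4, DKO 3 and TKO 4 were high, and each group also held libraries near or below 1 CPM. Its SD within groups was 1.2 on the log2 scale, and only 3.08% of tested genes had a larger one. Its log2 fold changes were -0.20 in DKO tumors and 0.06 in TKO tumors (adjusted p = 0.906 and 0.980 by edgeR), but without control 4 they were 0.74 and 1.00, and without TKO 4 the second was -0.81. Its direction thus turned on single libraries.

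Phlda3 (Entrez 27280, chromosome 1 from 137662696 to 137665713), a small PH-domain protein that restrains AKT, was at 2.78 CPM in DKO 3 and at 0.407 to 1.42 CPM in the other 11 libraries. Its log2 fold change was 0.64 in DKO tumors (adjusted p = 0.537 by edgeR) and -0.22 without DKO 3. In TKO tumors it was 0.30 (adjusted p = 0.851 by edgeR).

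The remaining targets act on RNA and on nutrient signaling. Zmat3 (Entrez 22401, chromosome 3 from 32233718 to 32264600), a zinc finger protein that binds RNA, was at 7.75 ± 2.70 CPM in control livers, 11.2 ± 2.03 in DKO tumors and 8.99 ± 2.24 in TKO tumors (SD, n = 4 each), with log2 fold changes of 0.53 and 0.21 (adjusted p = 0.236 and 0.743 by edgeR). Sesn2 (Entrez 230784, chromosome 4 from 132047947 to 132066416), an inhibitor of mTORC1 that senses leucine, was at 3.04, 3.57, 4.47 and 6.08 CPM in control livers, 6.98, 5.38, 6.80 and 7.37 CPM in DKO tumors and 4.70, 11.4, 5.75 and 7.09 CPM in TKO tumors. Only control 4 reached the level of the tumors. Sesn2 had log2 fold changes of 0.62 in DKO tumors and 0.75 in TKO tumors (SE 0.291 each, adjusted p = 0.214 and 0.238 by edgeR), and it was 0.44 in TKO tumors without TKO 2. Over the 8 tumors together it was 0.68 (SE 0.258, adjusted p = 0.140 by edgeR and 0.0995 by DESeq2).

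**Figure D2:**
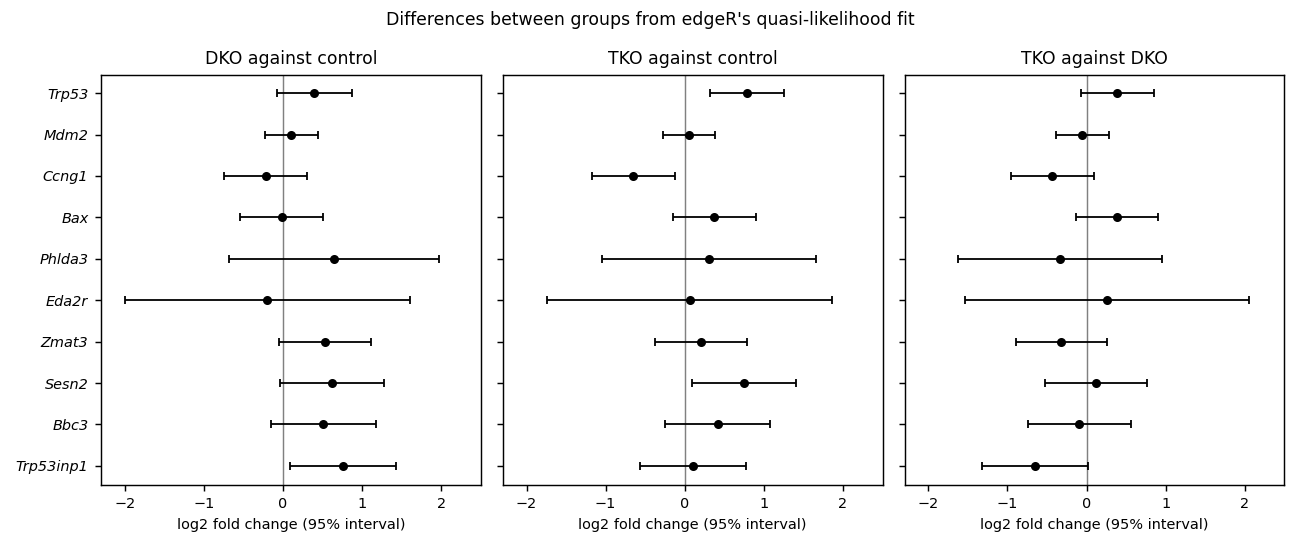
Log2 fold changes of the 10 genes (points) with 95% intervals from the edgeR fit (bars), for DKO tumors against control livers, TKO tumors against control livers, and TKO tumors against DKO tumors. Most intervals cross 0, the interval of Trp53 in TKO tumors runs from 0.31 to 1.26, and those of Eda2r and Phlda3 are the widest.

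Counted together, 7 of the 10 genes had a higher fitted level in DKO tumors than in control livers, as did 7162 of the 13882 tested genes, with a median log2 fold change of 0.45, beside 0.02 over all tested genes. edgeR called 0 of the 10, against 2.42% of all tested genes. At an unadjusted p under 0.05 it gave 1 (Trp53inp1), where 24% of all tested genes passed, and DESeq2 called 0, against 10.4% of its genes. The values of DKO tumors and control livers overlapped for all 10, while they did not overlap for 16.2% of tested genes. In TKO tumors 9 of 10 had a higher fitted level, all but Ccng1, as did 7289 of the tested genes, with a median of 0.25 beside 0.02 over all tested genes. edgeR called 0, against 0.0864% of tested genes, and gave 3 at an unadjusted p under 0.05 (Trp53 and Sesn2 higher, Ccng1 lower), where 16.3% of tested genes passed. DESeq2 called 1, Trp53, against 3.49% of its genes, and the values of none of the 10 were free of overlap, against 7.67% of tested genes.

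For TKO tumors against DKO tumors, 4 of the 10 were higher and 6 lower, where 7114 of the tested genes were higher, and the median log2 fold change was -0.07. edgeR and DESeq2 each called 0, against 0% and 0.398% of genes, 1 had an unadjusted p under 0.05 by edgeR (9% of tested genes), and 2 did not overlap, Trp53 and Trp53inp1 (4.87% of tested genes). For all 8 tumors against control livers, edgeR called 0 (2.48% of tested genes) and gave 3 at an unadjusted p under 0.05 (23%), DESeq2 called 1 (9.49% of its genes), and 0 were free of overlap (3.66%). Each count of genes called, under an unadjusted p of 0.05 or without overlap lay within 2 genes of what the share among all tested genes gives for 10 genes. The comparisons with control livers share the same 4 control libraries.

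**Figure D3:**
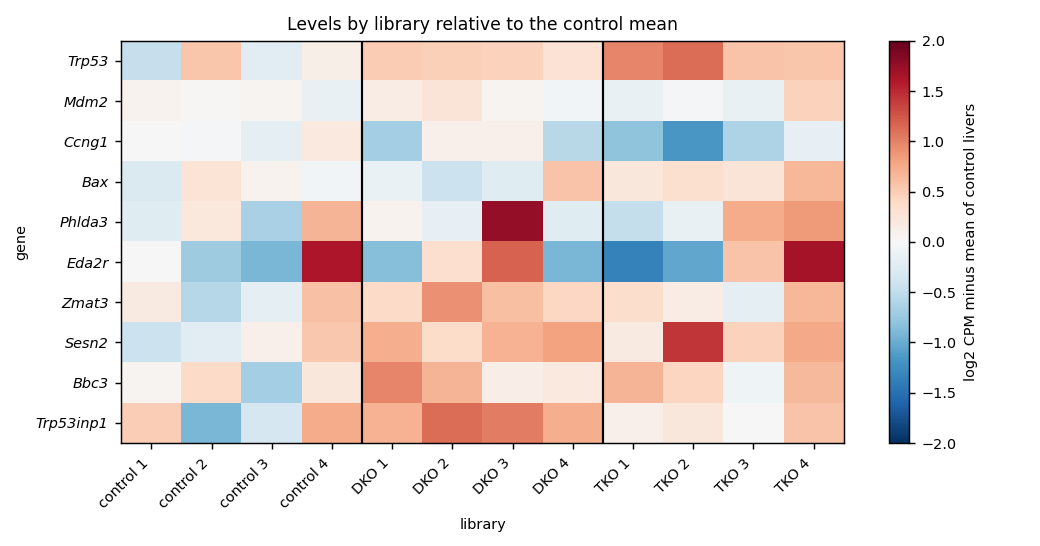
Level of each of the 10 genes (rows) in each of the 12 libraries (columns) as the difference in log2 CPM from the mean of the control livers, with red above and blue below it. TKO 4 is red for most targets, Eda2r and Phlda3 change from library to library, and Mdm2 stays pale throughout.

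TKO 1 and TKO 2 had the most Trp53. In TKO 1, 3 of the 9 targets were below every control liver and 1 was above, beside 24.1% and 26.6% of all tested genes. In TKO 2, 2 were below and 3 above, beside 24.9% and 28.6%. These counts lay near the shares among all genes. The library with the most targets above all control livers was TKO 4, with 7 of 9, where 26.9% of all tested genes were above. Among these, Eda2r (6.341 CPM in TKO 4, 6.15 in control 4), Zmat3 (11.79 and 11.2) and Phlda3 (1.417 and 1.245) were only slightly above the highest control liver. TKO 4 had the highest level within the TKO group for 7 of 9 targets, against 28.6% of all tested genes. Its Trp53 was the lowest of the group, at 20.37 CPM, but TKO 3 was close, at 20.56 CPM. In DKO tumors 2 to 4 of the 9 targets were above all control livers, beside 26.2% to 29.8% of tested genes. Among the control livers, control 4 was the highest for 6 of 9 targets, against 26.6% of all tested genes. TKO 4 also had the smallest share of Alb counts (4.82%), and whether this bears on its target levels was not tested.

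Over the 12 libraries, Pearson's r of log2 CPM with Trp53 was highest among the targets for Sesn2 (0.588) and Bbc3 (0.584) and lowest for Ccng1 (-0.627). The tested genes most like Trp53 were a gene without a matched symbol (Entrez 100503483, r = 0.922), Pfn1 (0.917) and Cyp2j6 (0.903). Those most like Mdm2 were Trpm7 (0.897), Nsf (0.889) and Gnaq (0.888), and Mdm2's r with Trp53 was -0.08. Those most like Ccng1 were Nat8 (0.884), Zfp968 and Ecpas (0.875 each), and Eda2r had the highest r with Ccng1 among the other 9 (0.632). These values describe 12 libraries in 3 groups that share library scaling and group differences, and the highest were picked from all tested genes.

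A wider set of 46 genes of the pathway was then read from the same fit, in lists of p53 relatives and regulators and of targets in arrest, apoptosis, DNA repair, and metabolism or secretion. Of these, 43 were tested, and Trp63, Trp73 and Sfn, with 0 to 4 counts per library, were not. In DKO tumors edgeR called 3 of the 43, all higher, where 2.42% of all tested genes were called in either direction: Cdkn1a and Btg2, which hold cells in arrest, and Thbs1, which encodes the secreted protein thrombospondin 1. DESeq2 called 7, all higher, which held the same 3 genes, against 10.4% of its genes. At an unadjusted p under 0.05 by edgeR, 11 of the 43 were higher and 1 lower, beside 24% of all tested genes in either direction. In TKO tumors edgeR called 0 of the 43, with 8 at an unadjusted p under 0.05 (16.3% of all tested genes). DESeq2 (3.49% of its genes) and limma-voom (97 genes among all tested) each called 1, Cdkn1a. The median log2 fold change over the 43 genes was 0.12 in DKO tumors and -0.09 in TKO tumors, beside 0.02 over all tested genes in each. Without overlap with control livers, 8 of the 43 lay above and 0 below in DKO tumors (16.2% of all tested genes). In TKO tumors 2 lay above and 1 below (7.67%), and over all tumors 1 above and 0 below (3.66%). For TKO tumors against DKO tumors 2 lay above and 3 below (4.87%).

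**Figure D4:**
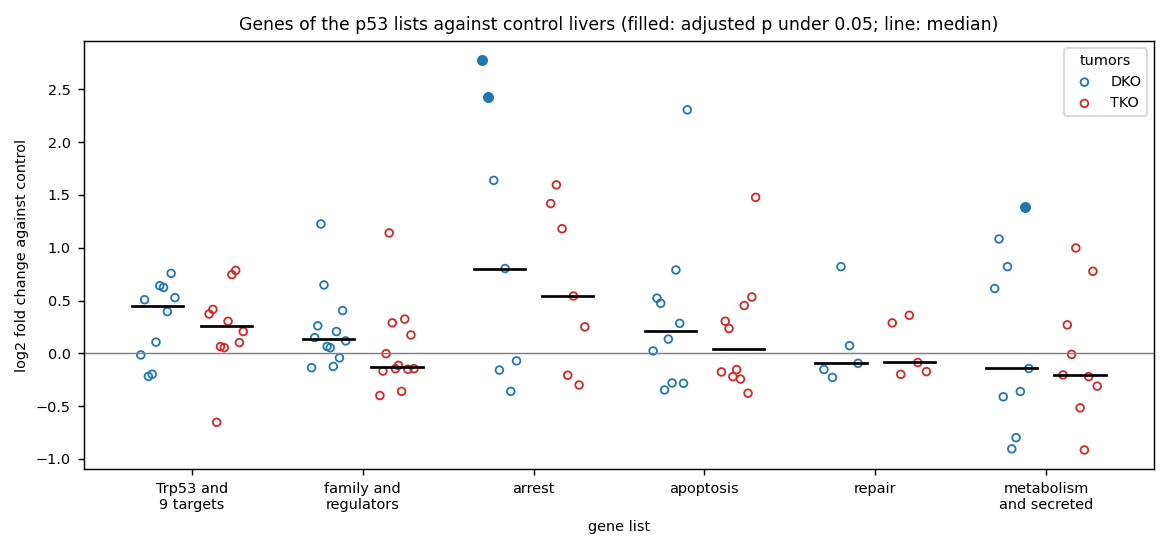
Log2 fold change against control livers of each tested gene of the p53 lists, in DKO tumors (blue) and TKO tumors (red), with the median of each list as a line and genes with an adjusted p under 0.05 filled. The 3 filled points are the DKO values of Cdkn1a, Btg2 and Thbs1, between 1.39 and 2.78, and the medians of the arrest list are 0.80 in DKO tumors and 0.54 in TKO tumors.

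Cdkn1a (mm9 chromosome 17 from 29227924 to 29237667), whose upstream window with a decamer pair is shown above, was at 5.56, 3.69, 2.91 and 13.6 CPM in control livers. It was at 41.6, 41.7, 39.4 and 17.5 CPM in DKO tumors and at 13.9, 28.9, 14.1 and 21.6 CPM in TKO tumors. All 8 tumors were above all 4 control livers, of which control 4 was the highest. Cdkn1a rose in DKO tumors, by 2.43 on the log2 scale (SE 0.467, adjusted p = 0.0389), and had a log2 fold change of 1.60 in TKO tumors (SE 0.458, adjusted p = 0.146 by edgeR and 0.0260 by DESeq2), and 2.01 over all tumors (SE 0.426, adjusted p = 0.0437). TKO tumors and DKO tumors differed by -0.84 on the log2 scale (95% interval -1.83 to 0.16, adjusted p = 0.585).

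Btg2 (chromosome 1 from 135971747 to 135975697), an antiproliferative gene of the BTG/TOB family that is also an immediate early gene, was at 5.76 to 11.9 CPM in control livers and at 97.0, 57.6, 52.5 and 35.2 CPM in DKO tumors, a log2 fold change of 2.78 (SE 0.545, adjusted p = 0.0412). In TKO tumors it was at 20.7, 52.7, 13.8 and 7.16 CPM, so that TKO 4, the library highest for the most targets of the 9, lay within the range of the control livers for Btg2. Its log2 fold change in TKO tumors was 1.42 (SE 0.527, adjusted p = 0.220).

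**Figure D5:**
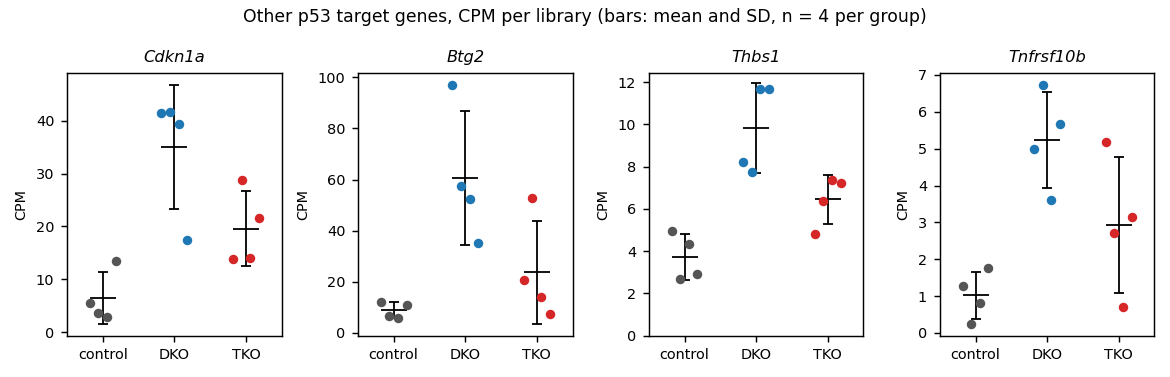
CPM per library (points) of 4 further p53 targets in control livers, DKO tumors and TKO tumors, with the mean and SD of 4 libraries as bars. For each gene the 4 DKO tumors lie above the 4 control livers, and the TKO means (19.6 CPM for Cdkn1a and 23.6 CPM for Btg2) lie between those of the other groups.

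Thbs1 (chromosome 2 from 117937612 to 117952869) was at 2.71 to 4.97 CPM in control livers, 7.75 to 11.7 CPM in DKO tumors and 4.82 to 7.36 CPM in TKO tumors, a log2 fold change of 1.39 in DKO tumors (SE 0.246, adjusted p = 0.0344) and 0.78 in TKO tumors (SE 0.246, adjusted p = 0.170). All 4 TKO tumors had less Thbs1 than every DKO tumor, with a log2 fold change of -0.61 that was not called (adjusted p = 0.515). Thbs1 is also made by endothelial and stromal cells and responds to other signals. Of 5 endothelial markers, 4 had a higher fitted level in DKO tumors and 5 in TKO tumors. edgeR called 0 in either genotype, beside 2.42% and 0.0864% of all tested genes. It gave 2 and 1 at an unadjusted p under 0.05, beside 24% and 16.3%, and DESeq2 called 2 and 0, beside 10.4% and 3.49% of its genes. None was at 0 counts in any library, and the summed level was 78.1 to 131 CPM in control livers, 112 to 173 in DKO tumors and 125 to 204 in TKO tumors. Of 5 stellate cell and fibroblast markers, edgeR and DESeq2 called 0, 0 had an unadjusted p under 0.05, and they summed to 228 to 328, 129 to 491 and 188 to 336 CPM. The part of these cells in the level of Thbs1 was not tested.

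The 3 calls were lost without single libraries, as were most calls among all genes. In DKO tumors edgeR called 0 of the wider genes without any 1 of control 2, control 3, DKO 1, DKO 2 or DKO 4, where the calls among all genes dropped from 336 to between 0 and 7. It called 1 without control 1 (Thbs1, with 166 among all genes) or control 4 (Cdkn1a, with 5), 2 without TKO 1 (Cdkn1a and Thbs1, with 96), and 3 or 4 without any other library. It also called 1, Thbs1, with a covariate from sex-linked genes, which left 6 calls among all genes. Xist had at most 6 counts and the Y-linked gene Ddx3y at least 472 counts in every library. The covariate therefore marks no difference in sex between libraries, and its effect on the calls cannot be read as one of sex. The log2 fold changes held their size in these fits, from 2.18 to 3.10 for Cdkn1a, 2.44 to 3.09 for Btg2 and 1.23 to 1.60 for Thbs1 over all alternatives. Over the 8 tumors together edgeR called the same 3 genes, 0 without any 1 of control 1, 2 or 3, DKO 1 or 2, and TKO 1 or 2, and 1 (Cdkn1a) without control 4 or DKO 4. Without DKO 3 it called 2 (Cdkn1a and Thbs1), and without TKO 3 it called 5.

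By list, the 7 tested arrest genes had a median log2 fold change of 0.80 in DKO tumors and 0.54 in TKO tumors, with Plk3, a stress-response kinase, lowest at -0.36 and -0.30. Among all tested genes, edgeR called 2.42% in DKO tumors and 0.0864% in TKO tumors. It gave 24% and 16.3% at an unadjusted p under 0.05, and DESeq2 called 10.4% and 3.49% of its genes. The counts of each list stand beside these shares. Of the 7 arrest genes, edgeR called 2 in DKO tumors and 0 in TKO tumors, with 4 and 3 at an unadjusted p under 0.05. DESeq2 called 3 and 1 of them. Of the 10 apoptosis genes, edgeR called 0 in either genotype, with 3 and 1 at an unadjusted p under 0.05 and 1 and 0 called by DESeq2, and the medians were 0.21 and 0.04. The highest was Tnfrsf10b, a TRAIL receptor, at 2.31 in DKO tumors (SE 0.559, adjusted p = 0.0516 by edgeR and 0.00165 by DESeq2) and 1.48 in TKO tumors (SE 0.557, adjusted p = 0.223). Tnfrsf10b rested on few counts per library, 2 to 24 in control livers, 61 to 96 in DKO tumors and 9 to 86 in TKO tumors. The lowest were Ei24 in DKO tumors (-0.35) and Pmaip1, which encodes NOXA, in TKO tumors (-0.38). The 5 repair genes had medians of -0.09 and -0.09, with 0 called by edgeR (1 and 0 at an unadjusted p under 0.05) and 1 and 0 by DESeq2. Polk, a translesion polymerase, was highest in DKO tumors (0.82, adjusted p = 0.0775 by edgeR and 0.0239 by DESeq2) and in TKO tumors (0.36, adjusted p = 0.489 by edgeR), and Ercc5, of nucleotide excision repair, was lowest in both (-0.23 and -0.20).

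In the list of 9 metabolic and secreted targets edgeR called 1 in DKO tumors and 0 in TKO tumors, beside 2.42% and 0.0864% of all tested genes. At an unadjusted p under 0.05 by edgeR, 2 were higher and 1 lower in DKO tumors, and 1 higher and 1 lower in TKO tumors, beside 24% and 16.3%. DESeq2 called 2 and 0, beside 10.4% and 3.49% of its genes. The medians of the 9 targets were -0.14 and -0.20. Thbs1 was the highest of them in DKO tumors, and the lowest was Gls2, the liver-type glutaminase, at -0.91 (adjusted p = 0.479), and in TKO tumors Gdf15, a stress-induced hormone, was highest at 1.00 (adjusted p = 0.439) and Lpin1, a phosphatidate phosphatase, lowest at -0.92 (adjusted p = 0.265), all by edgeR. Among the 12 tested relatives and regulators of p53, edgeR and DESeq2 called 0 in either genotype. At an unadjusted p under 0.05 by edgeR there were 1 and 2, beside 24% and 16.3% of all tested genes. The medians of this list were 0.13 in DKO tumors and -0.13 in TKO tumors. Chek1, the checkpoint kinase that is itself raised in dividing cells, was highest in both (1.23 and 1.14, adjusted p = 0.327 and 0.465 by edgeR), and Atm, the kinase that signals double-strand breaks to p53, was lowest in both (-0.14 and -0.40, adjusted p = 0.628 and 0.238 by edgeR). All 4 TKO tumors had less Atm than every control liver. It was the only 1 of the 43 wider genes to lie wholly below, and 2 lay wholly above, beside 7.67% of all tested genes without overlap. The 8 proliferation genes examined beside these lists had medians of 1.68 and 1.25. Of them, 1 and 0 were called by edgeR, beside 2.42% and 0.0864% of all tested genes. DESeq2 called 5 and 2, beside 10.4% and 3.49% of its genes. The 8 genes summed to 30.2 to 59.4 CPM in control livers, 49.4 to 153 in DKO tumors and 37.7 to 137 in TKO tumors.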

How the data were processed

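The deposited values are raw read counts per Entrez gene, which the authors made from SOLiD reads of poly(A) RNA mapped to mm9 with BWA and counted with featureCounts. Tool versions, whether strand was used, and how reads with several matches were counted are not given in the sources used here. Of 26301 identifiers, 24191 had a symbol in RefSeq (GRCm38.p6), with 99.4% of counts. Sample titles gave the groups and replicate numbers, with 4 livers per condition. No 2 libraries of a group agreed within sampling noise. Each p-value sets a difference between groups against the spread between these libraries, as estimated by the fit over all groups.

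All tests ran in edgeR 4.0.16 under R 4.3.3, with TMM scaling, filterByExpr, 1 mean per group over all 12 libraries, the quasi-likelihood test and Benjamini-Hochberg adjustment at 0.05. Standard errors were the log2 fold change divided by the square root of F, and 95% intervals used 9 residual degrees of freedom. These intervals do not match the p-values of the quasi-likelihood test exactly. Trp53inp1, TKO against DKO, had an unadjusted p of 0.0465 by that test and an interval that covered 0. CPM used the counts of tested genes, and log2 CPM a prior count of 2. DESeq2 1.42.0 and limma 3.58.1 (voom) were alternatives. Exon lengths and coordinates came from GENCODE vM1 (mm9), matched by symbol. In a test on simulated data of the comparison of DKO tumors with control livers, with 200 changed genes of 13882, 92% of changes of 2 and 98% of changes of 3 on the log2 scale were recovered with 3.55% false calls. The changed genes were drawn only from genes at higher mean CPM, and the counts from the spread that the fit itself had estimated. Smaller changes, such as those of Trp53 and its 9 targets, were not simulated, so their recovery is not known.

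The genes and lists were chosen with earlier results of these data known. The genes named were the 10 members, the highest and lowest gene of each wider list against control livers, the wider genes called by edgeR, and the 3 genes most alike in pattern to Trp53, Mdm2 and Ccng1. Some genes of the wider lists are not reported here and were left out of the counts and medians of those lists.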

Additional observations from a re-analysis of the deposited data

Results flagged for a closer look

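In a group of 4 libraries, a value was picked out where its gap to the nearest library as a share of the group's whole range was above Dixon's 95% critical value. Of 72 groups examined (24 genes, 3 groups each), 6 were picked out. Chance alone gives about 5% if the values of a group are normally distributed. This was not checked for CPM, so the share that chance gives here is not known. Mdm2 was at 31.6 CPM in TKO 4 and at 20.6 to 22.4 CPM in the other TKO tumors. Phlda3 was at 2.78 CPM in DKO 3 and at 0.590 to 0.767 CPM in the other DKO tumors. Cdkn1a was at 17.5 CPM in DKO 4 and at 39.4 to 41.7 CPM in the other DKO tumors. Pmaip1 was at 3.88 CPM in TKO 4 and at 1.07 to 1.39 CPM in the other TKO tumors. Gdf15 was at 4.17 CPM in control 4, against 0.615 to 0.890 CPM in the other control livers, and at 1.27 CPM in TKO 1, against 3.88 to 4.14 CPM in the other TKO tumors. TKO 4 was thus high for both Mdm2 and Pmaip1, and control 4 was the control liver with the most Gdf15, Eda2r and Cdkn1a. The causes were not tested.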

How the results depend on the processing

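The 10 members were called 0 times by edgeR in every comparison. DESeq2 called 1 (Trp53) in TKO tumors and 1 over all tumors, where it called 507 and 1422 among all genes. limma-voom called 1 in DKO tumors (Trp53inp1), 1 in TKO tumors and 1 over all tumors (Trp53 both times). Among all genes limma-voom called 1804, 97 and 1813 in these comparisons. An adjusted p under 0.1 gave 1 over all tumors (Trp53), beside 1317 among all genes. Leaving out each library in turn gave 0 to 0 in every comparison. The number of members without overlap was 1 in TKO tumors with DESeq2 size factors, and 1 in DKO tumors, 2 in TKO tumors and 1 between the tumor groups with total counts only. Without single libraries it ran from 0 to 3 in DKO tumors, 0 to 2 in TKO tumors and 0 to 1 over all tumors. For any gene, leaving out a library can only remove overlap between groups. The share of all tested genes without overlap was not computed for these alternatives. These counts therefore cannot be read as a result about the members. For the wider lists, whose alternatives were chosen after seeing the data, the 3 calls in DKO tumors became 7 by DESeq2, 9 by limma-voom, 8 at an adjusted p under 0.1 and 1 with the sex-linked covariate, while the 336 calls among all genes became 1518, 1804, 1460 and 6. The 3 over all tumors became 5 by DESeq2, 9 by limma-voom, 5 at an adjusted p under 0.1, 0 with total counts only and 1 with the covariate, while the 344 among all genes became 1422, 1813, 1317, 61 and 14. DESeq2 and limma-voom each called 1 in TKO tumors, beside 507 and 97 among all genes. Leaving out single libraries gave 0 to 4 calls in DKO tumors and 0 to 5 over all tumors.

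Directions turned for members with log2 fold changes near 0 or with few counts. With total counts only, Bax in DKO tumors was 0.0663, Mdm2 and Bbc3 between the tumor groups 0.0865 and 0.0621, and Eda2r over all tumors 0.0976. Bax in DKO tumors was 0.000443 with at least 10 counts per library and 0.0736 with the covariate, which also gave 0.20 for Bbc3 between the tumor groups and -0.0893 for Eda2r in TKO tumors. limma-voom gave Eda2r 0.35 in DKO tumors, -0.0868 in TKO tumors, -0.43 between the tumor groups and 0.13 over all tumors, and Mdm2 -0.0378 in TKO tumors. Without single libraries, Bax in DKO tumors ran from -0.28 to 0.10, Phlda3 from -0.22 to 0.99 and Eda2r from -0.81 to 0.74. In TKO tumors Mdm2 ran from -0.12 to 0.11, Eda2r from -0.81 to 1.00 and Trp53inp1 from -0.13 to 0.38. Between the tumor groups Mdm2 ran from -0.22 to 0.0103, Bbc3 from -0.21 to 0.10, Eda2r from -0.61 to 0.88, Phlda3 from -0.59 to 0.52 and Sesn2 from -0.19 to 0.28. Over all tumors Mdm2 ran from -0.0112 to 0.11 and Eda2r from -0.51 to 0.87. The cause was not tested. The direction of Trp53 and Ccng1 held in every fit.

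Correlations of the deviations of same-numbered libraries ran from -0.174 to 0.370. DKO and TKO tumors of replicates 1, 3 and 4 correlated at 0.205, 0.370 and 0.342 and those of replicate 2 at -0.00565, and since no comparison had every pair over 0.1, the numbers were not taken as pairs. A replicate block in the fit called 0 members in every comparison, 4 wider genes in DKO tumors, 0 in TKO tumors and 3 over all tumors, and over all genes 509 against 336 in DKO tumors and 1 against 12 in TKO tumors. With the block Eda2r was 0.0728 in DKO tumors, -0.13 in TKO tumors and -0.20 between the tumor groups. Fitting only the libraries compared gave no separate value for all tumors, which use all 12. Phlda3 rested on 6 to 47 counts per library and Eda2r on 9 to 85, and both also varied widely within groups.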
